A study of Homo sapiens with 38 samples.

Results

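EPCAM-DT is a long non-coding RNA (lncRNA) gene that is read away from the promoter of EPCAM, the gene of the epithelial cell adhesion molecule. It was 1 of the 22549 rows of the count table, and 1 of its 15828 lncRNA rows, found by its exact symbol, and it was chosen by its high measured level (CPM) in the gradient pool called 6_7. Levels that involve that pool are therefore a description and carry no test. The level in each library is given in CPM (counts scaled to a library total of 1000000) and as the share of that library's lncRNA counts.

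The libraries hold small RNA released by DiFi cells, a human colorectal cancer line, into the medium, and fall into 11 groups by culture, isolation method and fraction. The medium of cells grown in hollow fiber bioreactors (3D; 4 pools of about 400 mL, split into 60 mL aliquots) was used for 3 gradient pools, 2 groups by size-exclusion liquid chromatography (FPLC) and 3 groups by ultracentrifugation (UC). The medium of cells grown on plates (2D; 3 pools of 1360 mL, 48 h without serum) was used for UC alone. The gradient groups are Gradient 6_7, Gradient 9_10 and Gradient 12, with 4 libraries each, named by the fraction numbers; the labels say that the gradient parts heavy and light vesicles from non-vesicular material and do not say which pool holds which. FPLC Supermere and FPLC Exomere have 4 libraries each. In UC, supermeres are the pellet of 367000 g for 16 h, exomeres that of 167000 g for 16 h, and small extracellular vesicles (sEV) that of 167000 g for 4 h, with 3 libraries for each fraction in 3D and in 2D. All groups come from 1 cell line with no drug or genetic change, and all medium passed a 0.22 µm filter.

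A divergent transcript starts close to the promoter of a protein-coding gene and runs the other way, and HGNC marks such genes with the suffix DT. EPCAM itself is a surface protein of epithelia that colorectal cancers carry in abundance. Vesicles are bounded by a membrane, while exomeres and supermeres are particles without one, so that RNA found in a fraction may be enclosed or bound to protein. Libraries of this kind read short RNAs and fragments of longer ones, and a lncRNA row counts such fragments, not whole transcripts.

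The EPCAM-DT row, ENSG00000234690, was placed at chr2:47192405-47345074 (GRCh38) on the minus strand and spanned 152670 bases. GENCODE release 29 lists 5 transcripts for this gene under the clone name AC106869.1, whose exons together cover 3552 bases, or 2.33% of the span. EPCAM begins 84 bases away on the plus strand. The span also holds BCYRN1, the gene of the BC200 RNA, a short RNA made by RNA polymerase III that is abundant in primate neurons and in several tumours. BCYRN1 lies on the plus strand, in the first intron of EPCAM-DT, and overlaps none of its exons. BCYRN1 had no row of its own in the table, and whether the counting used strand is not given in the sources used here. Without strand, reads of a gene and of its antisense partner cannot be told apart, so every EPCAM-DT value below is the value of a row whose span includes BCYRN1 on the opposite strand.

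The first exon of EPCAM-DT is shown because it is the beginning of the lncRNA that names the row. Capitals in it (chr2:47344901-47345074, minus strand) mark the first 50 bases, which are also in the RefSeq promoter window of this gene (GRCh38.p14). The sequence is from the GENCODE release 29 transcripts and is written 5′ to 3′.
EPCAM-DT first exon: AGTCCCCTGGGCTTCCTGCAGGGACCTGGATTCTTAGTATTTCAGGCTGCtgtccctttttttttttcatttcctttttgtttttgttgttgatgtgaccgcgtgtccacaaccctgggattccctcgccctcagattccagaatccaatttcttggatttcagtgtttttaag

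**Figure D1:**
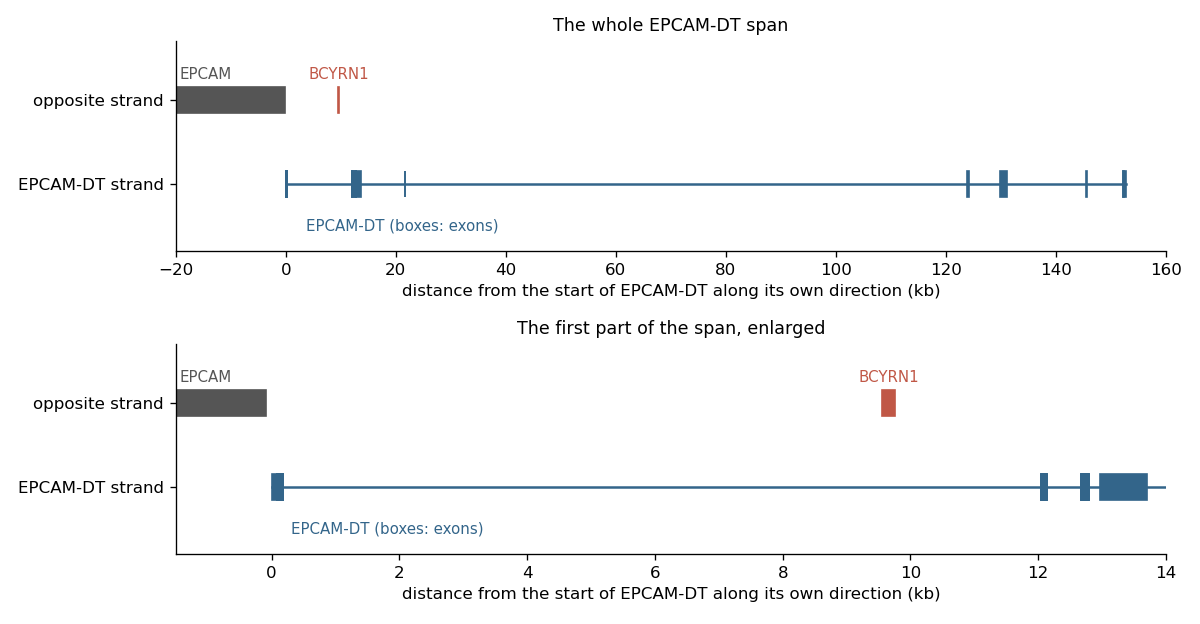
The EPCAM-DT span drawn as distance in kb from its start along its own direction, with exons as boxes and the genes of the opposite strand above; the lower panel enlarges the beginning. BCYRN1 stands in the first intron, and EPCAM begins 84 bases beyond the start.

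Library totals ran over a wide range, from 81079 to 16991360 counts in 37 libraries, and library A of the 3D UC Supermere group was nearly empty, with 46 counts, of which 0 fell on EPCAM-DT. That library is left out of the levels below but kept in the fit over all libraries, where leaving it out changed no call for EPCAM-DT. The gradient 9_10 libraries were the shallowest of the rest, with 81079 to 490374 counts. Nothing in the labels ties a replicate letter to a medium pool, and the methods of 3D may share pools, so a p-value here speaks of the variation among libraries alone, part of which may be technical. As a check of the labelled cell type, the 8 miRNAs listed as markers of colorectal epithelium (miR-200 family, miR-192, miR-194 and miR-215) were all detected in all 11 groups. Their summed level averaged 112163 CPM in Gradient 6_7, 113155 CPM in Gradient 9_10, 111888 CPM in 2D UC sEV, 71942 CPM in 3D UC sEV and 46267 CPM in FPLC Exomere (15596 to 114181 CPM). It averaged 9711 CPM in 2D UC Exomere, 3634 CPM in 2D UC Supermere, 2663 CPM in 3D UC Exomere and 1287 CPM in Gradient 12, and less in the other supermere groups. The groups high in EPCAM-DT below were thus high in these miRNAs, but not in proportion. The 10 listed miRNAs of blood cells, endothelium and liver summed to at most 1682 CPM in any library. In Gradient 6_7 they summed to 453 to 1014 CPM, and all but miR-223-3p were detected there. Of the 6 listed miRNAs of mesenchyme and muscle 4 have a row, and these summed to at most 98.0 CPM. The part of these levels in the EPCAM-DT values was not tested.

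In the 4 libraries of Gradient 6_7, EPCAM-DT had 2611, 1233, 3599.9 and 2189.8 CPM (libraries A to D), from 2456, 2332, 4638 and 8454 counts. The pool averaged 2408 ± 982 CPM (SD, n = 4). It was the highest group mean, but its lowest library lay below 2 of the 3 libraries of 2D UC sEV. Those had 1967, 1671 and 995 CPM (A to C), from 21148, 28395 and 11633 counts, and averaged 1544 ± 498 CPM (SD, n = 3). The ranges of these groups overlap. In such samples fewer particles that carry an RNA and less of it per particle cannot be told apart.

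Gradient 9_10 came next, with 852, 819, 728 and 813 CPM and a mean of 803 ± 53.1 CPM (SD, n = 4). The 4 libraries were close together although their EPCAM-DT counts were as low as 59 in library C and at most 418 in library A. All 4 lay below every library of 2D UC sEV and above every library of 3D UC sEV. The 3D UC sEV libraries had 90.4, 204 and 230.5 CPM, with a mean of 175 ± 74.4 CPM (SD, n = 3).

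The exomere groups stood lower still. FPLC Exomere had 42.0, 75.2, 73.0 and 93.3 CPM, a mean of 70.9 ± 21.3 CPM (SD, n = 4), and its highest library passed the lowest of 3D UC sEV. 3D UC Exomere had 46.1, 75.3 and 42.5 CPM, a mean of 54.6 ± 17.97 CPM (SD, n = 3), within the range of FPLC Exomere. In 2D UC Exomere the libraries had 37.7, 23.7 and 13.2 CPM, a mean of 24.9 ± 12.3 CPM (SD, n = 3), all below the 3D UC Exomere libraries.

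The lowest levels were those of the supermere groups and of Gradient 12. 2D UC Supermere had 31.8, 18.6 and 4.38 CPM, which averaged 18.3 ± 13.7 CPM (SD, n = 3) and overlapped 2D UC Exomere. Gradient 12 had 10.7, 1.64, 3.93 and 7.05 CPM, a mean of 5.84 ± 3.95 CPM (SD, n = 4), from 2 to 14 counts per library. FPLC Supermere had 2.08, 7.67, 2.30 and 2.71 CPM, a mean of 3.69 ± 2.66 CPM (SD, n = 4). In 3D UC Supermere library C had 3.38 CPM from 14 counts, and library B had 0 of 2071672 counts, which allows up to 1.45 CPM. From 2D UC Supermere downward the ranges of neighbouring groups overlap, so this end of the order is not resolved.

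**Figure D2:**
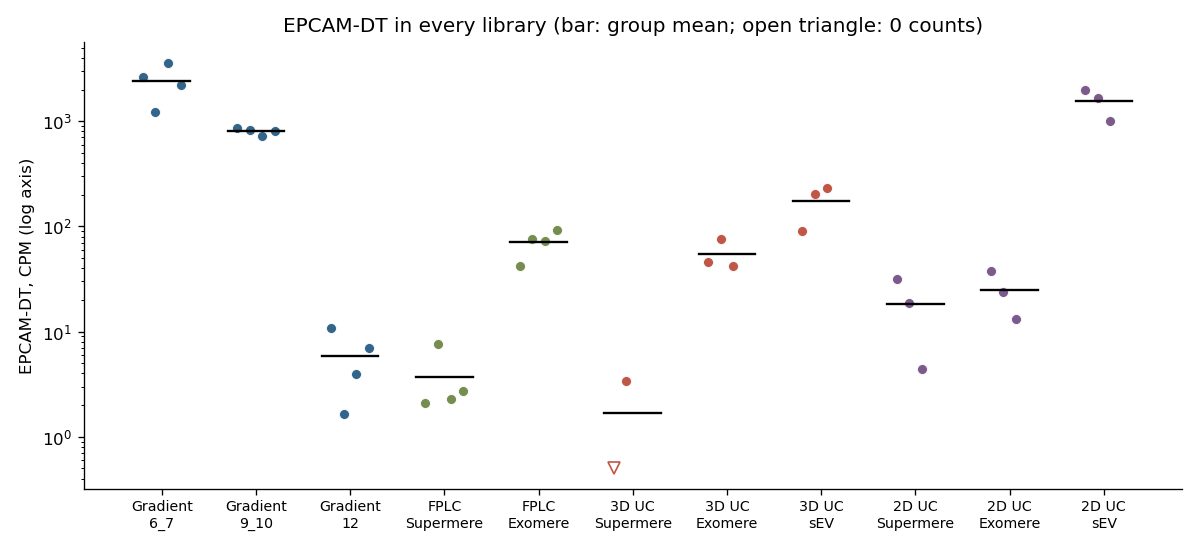
EPCAM-DT level in CPM on a log axis, with 1 point per library, a bar at each group mean, and an open triangle for the library with 0 counts; the library with 46 counts in all is not drawn. The Gradient 6_7 libraries lie between 1233 and 3599.9 CPM and overlap 2D UC sEV (995 to 1967 CPM), and the Gradient 9_10 libraries lie between 728 and 852 CPM.

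As a share of lncRNA counts, EPCAM-DT was set apart in Gradient 6_7. It took 21.0%, 23.6%, 26.0% and 16.5% of the lncRNA counts of libraries A to D, with 95% Wilson intervals of 20.3 to 21.7%, 22.8 to 24.4%, 25.3 to 26.6% and 16.2 to 16.8%. The mean was 21.8% ± 4.04 (SD, n = 4). No library of another group reached this range: 2D UC sEV, the next group, had 5.37%, 4.96% and 2.41%, a mean of 4.24% ± 1.60 (SD, n = 3). The library spread in Gradient 6_7 was far wider than the counting intervals, which cover counting error only.

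The order by share was not the order by CPM. Gradient 9_10 had 1.46%, 1.01%, 3.19% and 3.66% of lncRNA counts, a mean of 2.33% ± 1.29 (SD, n = 4), and overlapped 2D UC sEV. 3D UC Exomere came next with 1.03%, 1.92% and 0.896%, above the mean of 3D UC sEV, whose libraries had 0.845%, 0.429% and 0.512%. FPLC Supermere, among the lowest groups in CPM, averaged 0.609% ± 0.474 (SD, n = 4), and FPLC Exomere 0.376% ± 0.227 (SD, n = 4). Gradient 12 averaged 0.294% ± 0.126 (SD, n = 4). The 2D UC Supermere and 2D UC Exomere groups were lowest, at 0.0593% ± 0.0216 and 0.0517% ± 0.00124 (SD, n = 3 each). The measures differ in their denominators, for lncRNA counts were 0.523 to 1.39% of all counts in Gradient 6_7. They were 0.0180 to 0.172% in FPLC Supermere, and for 2D UC Exomere 2.54 to 7.13%.

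**Figure D3:**
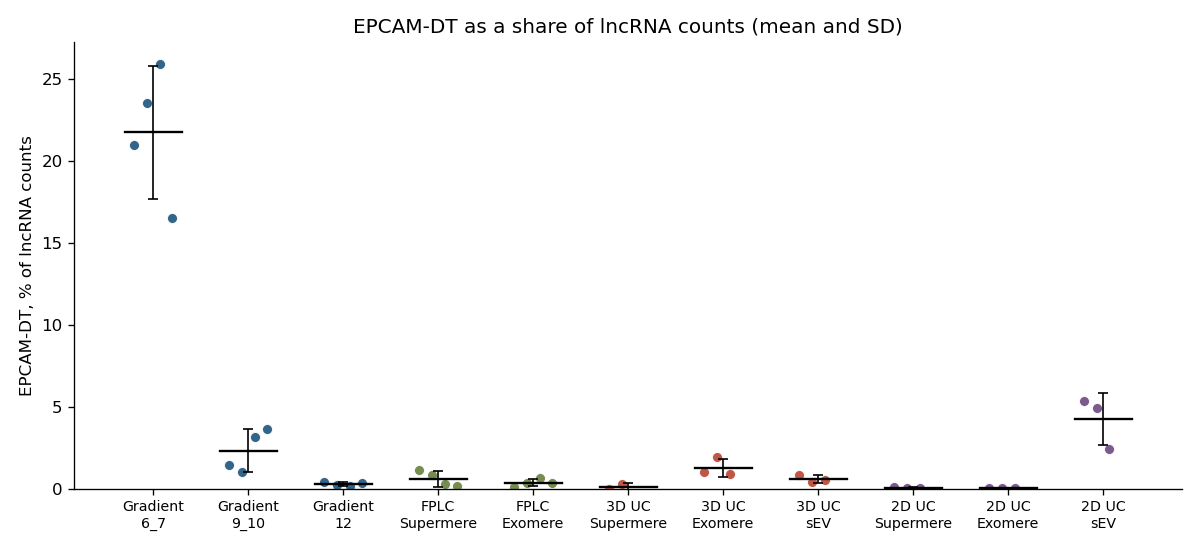
EPCAM-DT as a percentage of the lncRNA counts of each library, with 1 point per library and the group mean with its SD. The Gradient 6_7 libraries lie between 16.5% and 26.0%, and the highest library of any other group is at 5.37%.

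In Gradient 6_7 few lncRNA rows carried most of the lncRNA counts. This did not hold in all groups, for the first row took 5.40 to 26.8% of them in Gradient 9_10 and 0.559 to 1.19% in 2D UC Exomere. EPCAM-DT was the second lncRNA row by counts in 13 libraries, among them every library of Gradient 6_7, Gradient 9_10 and 2D UC sEV. The first row there was ENSG00000286171, a short row that overlaps the Y RNA gene RNY5 in RefSeq, and RNY5 has no row of its own in the table. In Gradient 6_7 that row averaged 7112 ± 2924 CPM and took 62.1% ± 6.77 of lncRNA counts (SD, n = 4). Without the largest other lncRNA row, the share of EPCAM-DT in Gradient 6_7 came to 57.5% of the rest. The next rows in Gradient 6_7 were GAS5, a host gene of snoRNAs, at 77.1 ± 20.4 CPM, NORAD, a cytoplasmic lncRNA that binds Pumilio proteins, at 70.01 ± 21.9 CPM, and ENSG00000259001 at 65.6 ± 38.4 CPM (SD, n = 4 each). ENSG00000259001 overlaps RPPH1, the RNA of RNase P.

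A long row can collect counts by its length alone, so levels between rows were compared per kb of span. EPCAM-DT had 8.07 to 23.6 CPM per kb in Gradient 6_7. Among the 991 other lncRNA rows of 100 to 250 kb, the highest stood below EPCAM-DT per kb in every library of Gradient 6_7, Gradient 9_10, FPLC Exomere, 3D UC Exomere, 3D UC sEV and 2D UC sEV. In Gradient 12, 2 to 10 of these rows were above it. In 2D UC Supermere 9 to 122 of the 991 were above it, and in 2D UC Exomere 24 to 71, so that most rows of its length still lay below it. In FPLC Supermere 0 to 54 were above it, and in library C of 3D UC Supermere 9. The length class was set after the values were seen. EPCAM-DT was chosen by its level in Gradient 6_7, so its lead over these rows in that pool is a description alone.

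Other divergent transcripts did not share the level in Gradient 6_7. EPCAM-DT was chosen by its level in that pool, so its lead there is a description alone. Outside the pool, AGA-DT had 260.4 CPM in library B of Gradient 12. The table holds 543 lncRNA rows whose symbol ends in -DT, of which 454 had 0 counts in all of Gradient 6_7. After EPCAM-DT the highest was RBM33-DT, at 14.2 ± 11.2 CPM (SD, n = 4), with 1 library or more at 0. OSER1-DT, BAIAP2-DT, COPB2-DT and PCCA-DT followed with means of 2.92, 2.46, 2.28 and 1.92 CPM. Per kb of span EPCAM-DT averaged 15.8 CPM and RBM33-DT 0.419 CPM.

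Rows that, like EPCAM-DT, cover a short structured RNA gene without a row of its own were counted as well, a tally chosen after the values were seen and taken over the small RNA genes of GENCODE release 29 as used here. That list has no gene for RNY5 or for the snoRNAs of GAS5, so the tally leaves out ENSG00000286171 and GAS5 and is incomplete. On the opposite strand to the lncRNA there were 77 such rows, and 1 of them, EPCAM-DT itself, had a mean of at least 10 CPM in Gradient 6_7. The next in that list was FTX, at 9.70 CPM. EPCAM-DT was chosen by its level in this pool, so its place at the top of the tally was given in advance. On the same strand the tally held 78 rows, of which 4 reached 10 CPM. How many of the EPCAM-DT counts came from either strand was not tested, since the table holds no strand or position of reads. The EPCAM-DT value was whole in all 38 libraries (tolerance 1e-06). Over all values of the table, zeros included, 6.71% were not whole. How many other rows were whole in every library was not counted.

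Other rows near EPCAM-DT had few counts. Within 100 kb GENCODE lists 5 protein-coding genes, EPCAM among them, and 0 of them have a row in this table of non-coding RNA, so the level of EPCAM was not analysed here. hsa-miR-559, which lies within EPCAM, was counted in 11 libraries and reached at most 4.15 CPM, in 3D UC sEV; it had 0 counts in Gradient 6_7. ENSG00000226087, a lncRNA inside the EPCAM-DT span on the other strand, also had 0 counts in Gradient 6_7 and reached at most 5.63 CPM, in 2D UC Exomere. The pseudogene row RN7SKP119 had 2 counts in all of Gradient 6_7 and the 7SL-like row Metazoa_SRP had 1. Copies of 46 repeat family rows also lie in this window, and their counts are sums over many places in the genome.

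The differences that involve Gradient 6_7 are described without a test. The mean CPM of Gradient 6_7 was 3.00 times that of Gradient 9_10, 412 times that of Gradient 12 and 13.8 times that of 3D UC sEV. In the edgeR fit, scaled by TMM, the log2 fold changes were 4.25 against Gradient 9_10, 8.05 against Gradient 12 and 3.74 against 3D UC sEV. The median feature stood at -3.35, 0 and -3.05 in these comparisons, in that order. TMM is meant to set a library's scale so that most features do not move, which the medians against Gradient 9_10 and 3D UC sEV do not show. Its factors ran from 0.0553 to 13.6, so a log2 fold change can differ from the ratio of CPM. Of the 7009 features tested in that fit, 6.92% passed as higher in Gradient 6_7 than in Gradient 9_10, 7.02% against Gradient 12 and 0.328% against 3D UC sEV.

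Within 2D culture, EPCAM-DT was far lower in both particle fractions than in sEV. The mean was 24.9 CPM in 2D UC Exomere against 1544 CPM in 2D UC sEV, a log2 fold change of -7.74 (SE 1.12; adjusted p 8.69e-10, edgeR's quasi-likelihood test with Benjamini-Hochberg adjustment), and 7.95% of the features passed as lower in this comparison. In 2D UC Supermere it averaged 18.3 CPM against 1544 CPM in 2D UC sEV, a log2 fold change of -7.63 (SE 1.12; adjusted p 8.49e-10 by the same test), where 8.45% passed as lower. Every library of either particle fraction lay below every sEV library. The median feature moved little in these fits, by 0.10 for exomeres and -0.01 for supermeres on the log2 scale. Under other scalings the log2 fold changes of EPCAM-DT were smaller in size. They were -5.96 for exomeres and -6.40 for supermeres by library totals, and -6.36 and -6.16 by lncRNA totals.

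In 3D culture the picture differed by fraction. EPCAM-DT averaged 54.6 CPM in 3D UC Exomere and 175 CPM in 3D UC sEV, and the ranges did not overlap, but the log2 fold change of -1.44 (SE 0.855) did not pass (edgeR adjusted p 0.277; 10.1% of features passed). With lncRNA totals as library sizes the sign turned to 1.11, since its share of lncRNA counts was higher in 3D UC Exomere. In 3D UC Supermere it fell to 0 and 3.38 CPM, against 90.4 to 230.5 CPM in 3D UC sEV, a log2 fold change of -5.69 (SE 1.25; edgeR adjusted p 0.000251; 7.33% passed as lower). The median feature of that fit stood at -3.90, so EPCAM-DT was 1.79 log2 units lower than the median. That call was lost without library B of 3D UC Supermere (-4.67, adjusted p 0.0839), in a fit of these groups alone (-3.60, 0.0511) and with lncRNA totals (-2.17, 0.135).

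The exomere-to-sEV difference was itself compared between cultures, a test added after the values were seen. It was -1.44 in 3D and -7.74 in 2D, so that 3D exceeded 2D by 6.31 log2 units (SE 1.29; edgeR's quasi-likelihood adjusted p 0.000933; 1.17% of features passed as higher). Scaled by library totals the difference was 4.28 (adjusted p 0.0341), and by lncRNA totals 7.46 (adjusted p 1.92e-07). Without library B of 3D UC Exomere it was 5.64 (adjusted p 0.0152). The supermere-to-sEV difference was -5.69 in 3D and -7.63 in 2D, and the difference of 1.94 (SE 1.303) did not pass (edgeR adjusted p 0.537; 1.66% of features passed); with library totals it was -0.16.

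Between cultures, EPCAM-DT was higher in 3D UC Exomere than in 2D UC Exomere. The libraries had 42.5 to 75.3 CPM in 3D against 13.2 to 37.7 CPM in 2D, with no overlap, and the share of lncRNA counts was 1.28% ± 0.557 in 3D against 0.0517% ± 0.00124 in 2D (SD, n = 3 each). The log2 fold change was 4.04 (SE 0.947; edgeR adjusted p 0.00161; 5.11% passed as higher), while the median feature fell by 1.26. The size depends on the scaling: by library totals it was 1.14 and did not pass (adjusted p 0.202), as for a fit without a filter on low counts (3.41, adjusted p 0.0644). Without library B of 3D UC Exomere it was 3.31 (adjusted p 0.0292).

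In sEV the levels ran the other way, with 175 CPM in 3D UC sEV against 1544 CPM in 2D UC sEV and no overlap of libraries. The log2 fold change of -2.26 (SE 0.877) did not pass the main test (edgeR adjusted p 0.184; 2.95% of features passed). It passed by library totals (-3.14, adjusted p 0.0380), in a fit of these libraries alone (-2.36, 0.00449) and in DESeq2 (-2.55, 0.00184). For supermeres the means were 1.69 CPM in 3D (n = 2) and 18.3 CPM in 2D (n = 3), and the log2 fold change of -0.32 (SE 1.00) did not pass (edgeR adjusted p 0.827; 3.2% passed). That value was -3.30 with an edgeR adjusted p of 0.0291 by library totals and 1.15 by lncRNA totals, so its direction was not fixed by these data. In the main fit, which holds the near-empty library, the median feature stood at -4.69 for supermeres, with EPCAM-DT 4.36 log2 units above it. Culture cannot be told apart from medium volume, serum-free time or concentration step, which differed with it.

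Across isolation methods, the particle fractions of FPLC were set against each other and against UC. EPCAM-DT averaged 3.69 CPM in FPLC Supermere against 70.9 CPM in FPLC Exomere, with no overlap, yet the log2 fold change of -1.17 (SE 0.748) did not pass (edgeR adjusted p 0.273; 9.03% passed). By library totals it was -4.25 (adjusted p 6.34e-06), and by lncRNA totals 0.70. FPLC Exomere against 3D UC Exomere gave -0.97 (SE 0.779; edgeR adjusted p 0.424; 9.4% passed), and 0.37 by library totals. FPLC Supermere against 3D UC Supermere gave 2.11 (SE 1.04; edgeR adjusted p 0.470; 0.228% passed), from means of 3.69 and 1.69 CPM; it was 1.05 in a fit of these groups alone and 0.999 without library B of 3D UC Supermere.

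Among gradient pools, EPCAM-DT fell to 1.64 to 10.7 CPM in Gradient 12, against 728 to 852 CPM in Gradient 9_10. The log2 fold change was -3.80 (SE 0.834; edgeR adjusted p 0.000248; 2.81% passed as lower), with the median feature at -2.09. By library totals it was -7.11 (adjusted p 4.35e-11). In simulated data at these depths fold changes between these pools were shifted upward under TMM and downward under library totals, so the size of this difference is uncertain. Gradient 12 also lay below 3D UC Exomere, at 5.84 against 54.6 CPM and a log2 fold change of -2.87 (SE 0.833; edgeR adjusted p 0.0161; 3.08% passed as lower). That call was lost without library B or C of Gradient 12 (-2.52 and -2.71, adjusted p 0.0972 and 0.0808), without library B of 3D UC Exomere (-2.22, 0.207) and with lncRNA totals (-2.09, 0.167).

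Gradient 9_10 and 3D UC sEV both come from the 3D culture and differ in the method. By CPM the gradient pool was higher, at 803 against 175 CPM, with no overlap, and its share of lncRNA counts was 2.33% against 0.595%. The TMM fit gave the opposite sign, a log2 fold change of -0.50 (SE 0.781) that did not pass (edgeR adjusted p 0.828; 9.7% passed). It was 2.20 by library totals (adjusted p 0.0568), 1.97 by lncRNA totals (0.0899), 1.39 in a fit of these 7 libraries alone (0.0375) and 0.14 without library B of Gradient 9_10. The direction thus changed with the scaling, with the libraries fitted and with 1 library, and the shallow Gradient 9_10 libraries are those whose fold changes were shifted in simulated data.

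**Figure D4:**
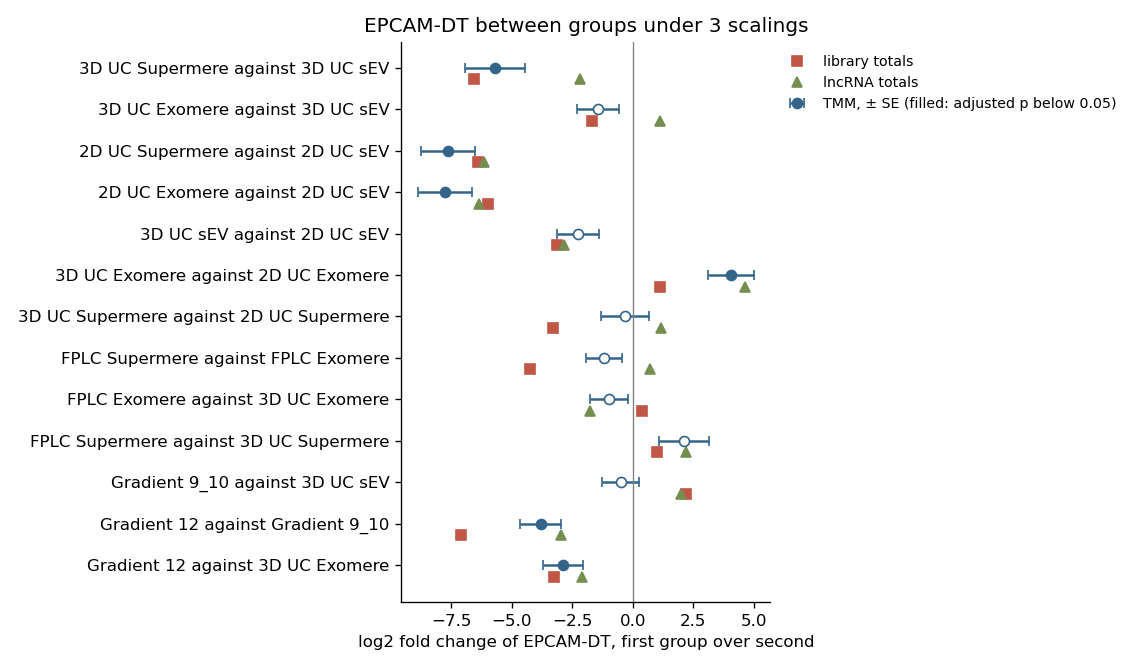
Log2 fold change of EPCAM-DT for the 13 tested comparisons, first group over second, from the TMM fit with its SE (filled where the adjusted p is below 0.05) and, just below, from fits scaled by library totals and by lncRNA totals. Both 2D comparisons of particle fractions with sEV lie below -5 under each of the 3 scalings, while Gradient 9_10 against 3D UC sEV changes sign from -0.50 to 2.20 and 1.97.

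Shares of lncRNA counts were tested with 3 exact two-sided permutation tests, adjusted over the 3. The mean share was 0.294% in Gradient 12 against 2.33% in Gradient 9_10, and every library of Gradient 12 lay below every library of Gradient 9_10; the exact p was 0.0286, the smallest that 70 assignments allow, and 0.0857 when adjusted. It was 0.609% in FPLC Supermere against 0.376% in FPLC Exomere, where the libraries overlap (exact p 0.457, adjusted 0.457). Averaged over the 3 UC fractions it was 0.671% in 3D against 1.45% in 2D, with permutations within fractions (exact p 0.265, adjusted 0.398). Within fractions the direction was mixed, since 3D was lower in sEV and higher in exomeres.

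Other divergent transcripts were followed in the same fits for reference. Of the 542 other -DT rows, 174 passed the filter on low counts. In 2D UC Exomere against 2D UC sEV 0 rose and 0 fell among them by edgeR's adjusted p. At an unadjusted p under 0.05, 7 were higher (4.02%) and 0 lower. Among the 4756 lncRNA rows tested 2.9% were higher and 0.61% lower, and over all features 3.32% and 10.6%. The -DT rows had a median of 0.22 beside 0.10 over all features. In 2D UC Supermere against 2D UC sEV 0 rose and 0 fell by edgeR's adjusted p. At an unadjusted p under 0.05, 8 were higher (4.6%) and 0 lower. Among all lncRNA rows 2.69% were higher and 1.16% lower, and over all features 5.01% and 11.5%. The -DT rows had a median of 0.19 beside -0.01. In 3D UC Exomere against 2D UC Exomere, where EPCAM-DT rose, 0 rose and 4 fell by edgeR's adjusted p, with 0 higher and 62 lower at an unadjusted p under 0.05, and a median of -2.49 beside -1.26. The 4 are 2.3% of the -DT rows, beside 3.41% of all lncRNA rows and 3.48% of all features. The 62 are 35.6%, beside 33.5% and 26.7%, so the -DT rows were near the other lncRNA rows. At the same unadjusted p 0.442% of lncRNA rows and 8.2% of all features were higher. Over all 7009 features 8.57%, 10.4% and 8.59% passed in either direction in these comparisons. DESeq2 called 0 of the -DT rows it gave an adjusted p for in these comparisons, which were 42, 79 and 42 rows in that order.

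The rows most like EPCAM-DT were sought by Pearson's r of log2(CPM + 1) over the 37 libraries, among the 2994 rows that passed the filter and averaged at least 10 CPM in a group. These values share library totals with EPCAM-DT, and the groups differ so much that many rows follow them: 219 rows had r above 0.8, of which 99 were Y RNA rows and 98 miRNA rows, and the median r was 0.18. The highest were tRNA rows. The row of tRNA-Gly-GCC copies had r = 0.956, that of tRNA-Glu-CTC copies 0.955 and that of tRNA-Gly-CCC copies 0.933; all carry amino acids in translation, and fragments of them are common in RNA outside cells. Next were hsa-miR-194-3p (r = 0.930), from a miRNA gene of the intestinal epithelium, and hsa-miR-28-5p (r = 0.922). These miRNAs do not share a seed, as their sequences from the deposited table show, with the seed (bases 2 to 8) in capitals.
hsa-miR-194-3p: cCAGTGGGgctgctgttatctg
hsa-miR-28-5p: aAGGAGCTcacagtctattgag

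Like EPCAM-DT, these rows were high in Gradient 6_7 and in 2D UC sEV and low in Gradient 12, which follows from their choice by r over the same libraries. hsa-miR-194-3p averaged 139 CPM in Gradient 6_7, 71.8 CPM in Gradient 9_10, 0.384 CPM in Gradient 12 and 80.9 CPM in 2D UC sEV. tRNA-Gly-GCC averaged 94570.3 CPM in Gradient 6_7, 354 CPM in Gradient 12 and 107628 CPM in 2D UC sEV. Among lncRNA rows the most alike were MIR194-2HG (r = 0.859), ENSG00000286171 (0.831), NORAD (0.812), MIR200CHG (0.749) and PDE4DIPP4 (0.701). The spans of MIR194-2HG and MIR200CHG each hold 4 miRNA rows on the same strand, with miR-192 and miR-194 in MIR194-2HG and miR-200c and miR-141 in MIR200CHG. Without the Gradient 6_7 libraries, which chose the gene, r over the other 33 was 0.949 for tRNA-Gly-GCC, 0.907 for hsa-miR-194-3p and 0.832 for MIR194-2HG. It fell further for NORAD (0.730), MIR200CHG (0.684) and PDE4DIPP4 (0.578). Of the 10 rows named as most alike, 7 remained so without that pool. ENSG00000286171 did not follow the order of EPCAM-DT throughout: it averaged 7112 CPM in Gradient 6_7, against 27605 CPM in 3D UC sEV and 21941 CPM in 2D UC sEV, while EPCAM-DT averaged more in Gradient 6_7 than in either.

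**Figure D5:**
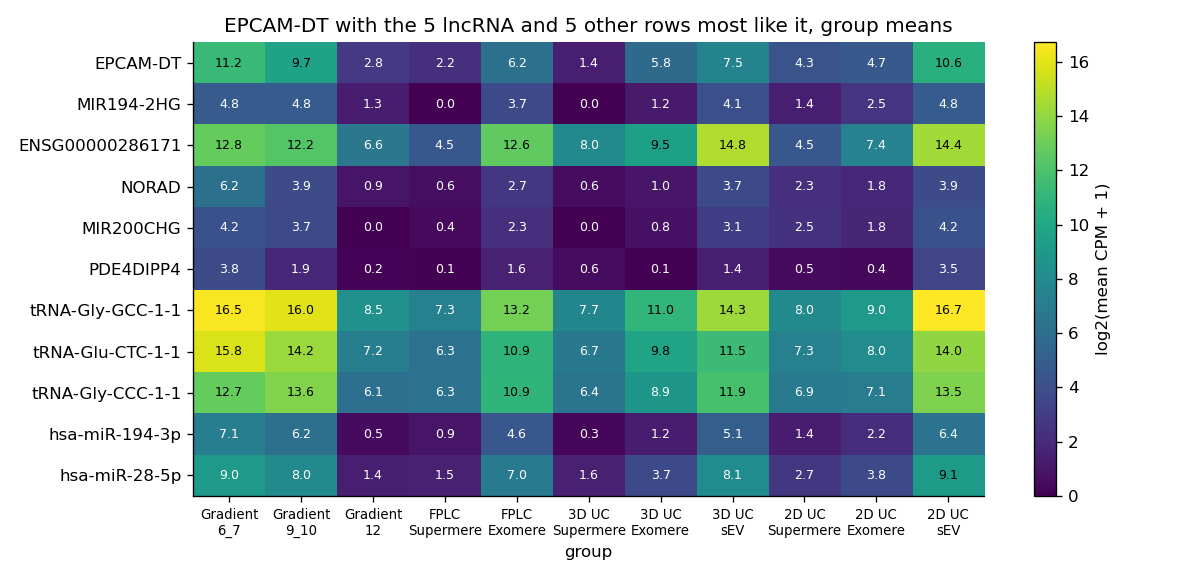
Group means of EPCAM-DT and of the 5 lncRNA rows and 5 other rows with the highest r in their kind, as log2(mean CPM + 1), with groups in columns and rows of the table in rows. Each of the 11 rows averages more in Gradient 6_7 and in 2D UC sEV than in Gradient 12 or a supermere group. The rows were picked by r over these same libraries, so a shared pattern follows from the choice.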

How the data were processed

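Small RNA libraries of RNA treated with AlkB demethylases were sequenced, per the labels' protocols. The authors deposited 1 table of expected counts per feature, not scaled between libraries. The tools named are Bowtie 1.3.1, cutadapt 4.5 and FastQC 0.12.1, with the build GRCh38.p13, per the submitters' processing notes; the counter, its annotation and its use of strand are not given in the sources used here. The members and lists were chosen with earlier results of these data known.

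CPM were taken over library totals. Counts were rounded and fitted with edgeR 4.0.16 in R 4.3.3 (glmQLFit robust, TMM, filterByExpr with a minimum count of 10; 7009 features; 38 libraries, 11 group means, 27 residual degrees of freedom), with Benjamini-Hochberg adjustment over all features and a threshold of 0.05. The SE is the size of the log2 fold change over the root of F. DESeq2 1.42.0 was an alternative. Shares were compared with exact permutation tests. Wilson intervals and the limit of 3 counts behind a value of 0 cover counting error only. Shares of UC libraries were tested where lncRNA counts reached 1000. Named rows are EPCAM-DT, all rows within 100 kb, the 5 highest -DT and lncRNA rows of Gradient 6_7, and the 5 lncRNA and 5 other rows most alike. Locus features are from GENCODE release 29 (GRCh38), whose start and end for EPCAM-DT equal those of the table. The fit was tested on simulated data, in several configurations run one after another. At the real depths of Gradient 12 and the shallow Gradient 9_10 it did not cleanly recover the fold changes put in: fold changes were shifted under TMM, with or without singleton pairing, and the other way under library totals, and false calls exceeded the nominal share in each. At the dispersion of the data most of the changed features were also missed, so a comparison that did not pass may hold a difference. They were recovered at equal depth together with a dispersion set below that of the data, a configuration tried after the others and under TMM alone. False calls there were still slightly above the nominal share. Equal depth at the dispersion of the data was not tried, so the recovery cannot be credited to depth alone. Scaling, filter, tool, replicate block and leaving out each replicate were the alternatives.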

Additional observations from a re-analysis of the deposited data

Results flagged for a closer look

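In FPLC Supermere, library B had 7.67 CPM of EPCAM-DT, far above the other 3 libraries of its group (2.08, 2.30 and 2.71 CPM); the gap passes Dixon's 95% critical value for 4 samples, which by its definition about 1 of 20 groups pass by chance. The exomere-to-sEV difference of EPCAM-DT was not alike in the 2 cultures, with a difference between 3D and 2D of 6.31 on the log2 scale (SE 1.29; adjusted p 0.000933 in edgeR's quasi-likelihood test). It kept its sign and passed in each alternative tried, at 4.28 to 7.46, including library totals, lncRNA totals, DESeq2 and leaving out each replicate in turn. The composition of lncRNA counts moved with it: 3D UC Exomere libraries held 0.392 to 0.474% of their counts in lncRNA rows, against 1.07 to 4.75% for 3D UC sEV. For 2D UC Exomere the range was 2.54 to 7.13%, against 3.37 to 4.12% for 2D UC sEV. The part of this composition in the result was not tested.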

How the results depend on the processing

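The calls for 2D UC Exomere and 2D UC Supermere against 2D UC sEV and for Gradient 12 against Gradient 9_10 passed in every alternative tried, among them TMM with singleton pairing and RLE size factors without the near-empty library, which were chosen after seeing the data and changed no call. Most other changes came with the scaling, and their cause was not tested. By library totals, 3D UC sEV against 2D UC sEV (-3.14), 3D UC Supermere against 2D UC Supermere (-3.30) and FPLC Supermere against FPLC Exomere (-4.25) came to pass, 3D UC Exomere against 2D UC Exomere (1.14) no longer passed, and the sign turned for FPLC Exomere against 3D UC Exomere (0.37), Gradient 9_10 against 3D UC sEV (2.20) and the supermere-to-sEV difference between cultures (-0.16). By lncRNA totals, 3D UC Supermere against 3D UC sEV (-2.17) and Gradient 12 against 3D UC Exomere (-2.09) no longer passed, and the sign turned for 3D UC Exomere against 3D UC sEV (1.11), 3D UC Supermere against 2D UC Supermere (1.15), FPLC Supermere against FPLC Exomere (0.70) and Gradient 9_10 against 3D UC sEV (1.97). With only the libraries of both groups, 3D UC Supermere against 3D UC sEV no longer passed (-3.60), 3D UC sEV against 2D UC sEV passed (-2.36), and the sign turned for 3D UC Supermere against 2D UC Supermere (0.29) and Gradient 9_10 against 3D UC sEV (1.39). Without a filter, 3D UC Exomere against 2D UC Exomere no longer passed (3.41), and in DESeq2 3D UC sEV against 2D UC sEV passed (-2.55).

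Leaving out each replicate in turn gave -13.8 to -4.67 for 3D UC Supermere against 3D UC sEV, -8.49 to 0.64 for 3D UC Supermere against 2D UC Supermere, -0.78 to 0.14 for Gradient 9_10 against 3D UC sEV, -3.28 to -2.22 for Gradient 12 against 3D UC Exomere, 0.999 to 10.1 for FPLC Supermere against 3D UC Supermere and -6.16 to 2.97 for the supermere-to-sEV difference between cultures; the largest of these arise where library C of 3D UC Supermere, the 1 with counts, is left out, and are no bound. With the replicate block, no call changed: Gradient 12 against Gradient 9_10 gave -3.82 (adjusted p 0.000281 in edgeR's quasi-likelihood test), and 3D UC Exomere against 2D UC Exomere 4.09. Same-letter libraries did not deviate together (r of -0.0946 to 0.0861, and 0 of 10 comparisons with every pair over 0.1). With few libraries per group and unequal depths, this cannot show whether a letter stands for a shared medium pool. In CPM in place of shares, the difference of Gradient 12 from Gradient 9_10 was -797 CPM (exact permutation adjusted p 0.0429) and that of FPLC Supermere from FPLC Exomere -67.2 CPM (0.0429). The Gradient 6_7 share was 57.5% without the largest other row. By Spearman's rho, 6 of the 10 rows named as alike (5 lncRNA, 5 other) remained. Counts of 0 to 59 in 3D UC Supermere, Gradient 12, FPLC Supermere and library C of Gradient 9_10 limit those levels.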

Other observations

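The lncRNA rows that led in place of EPCAM-DT differed between libraries, as seen after the values were known. In libraries A and B of 2D UC Exomere the first lncRNA rows were ELDR, at 471 and 263 CPM, followed by EGFR-AS1; both lie at the EGFR locus, and DiFi cells are known for many copies of EGFR. EPCAM-DT had 37.7 and 23.7 CPM there and ranked 286 and 322 among lncRNA rows. Library C of 2D UC Exomere was led by ENSG00000286171, at 302 CPM. ELDR was not particular to exomeres, for it was first in library A of 2D UC Supermere (236 CPM) and second in libraries B and C. Nor was it particular to 2D culture. It was also among the leading lncRNA rows in libraries A and B of Gradient 9_10 (363 and 658 CPM) and library D of FPLC Exomere (195 CPM). In Gradient 12 the first rows were MALAT1, a nuclear lncRNA, in libraries A and D (266 and 116 CPM), AGA-DT, another divergent transcript, in library B (260.4 CPM) and SNHG20, a snoRNA host gene, in library C (212 CPM), while EPCAM-DT ranked 15 to 48.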
